A study of Mus musculus with 34 samples.

Results

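N2A cells, a mouse neuroblastoma line, were grown for 24 h with the kinase inhibitor NVP-AEW-541 (library label OICR.KI.2016_1_D05) at 1 µM or with the vehicle, DMSO, at the same final 0.4%, and their polyA RNA was sequenced. The comparison described here set the treated library, of which there was 1, against the 3 DMSO libraries A, B and C, that is 4 of the 34 libraries of the series. The libraries were chosen by treatment label alone. The study screened small molecules for effects on the splicing of neuronal microexons, and this comparison asks which exons, introns and genes differ when IGF1R, the listed target of the compound, is inhibited. The AKT1 inhibitor A-443654 (label OICR.KI.2016_1_M04) at 250 nM and the MEK inhibitor Trametinib (label OICR.KI.2016_2_G19) at 1 µM, with 1 library each, are given beside it because both targets act below IGF1R. The study describes its DMSO controls as biological replicates, but reports fewer of them than the 3 DMSO libraries of the series. The labels do not say which of the 3 came from separate cultures, and all 3 are used here as separate controls. The treatment itself had no replicate.

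IGF1R is a receptor tyrosine kinase that binds the insulin-like growth factors. Once active it phosphorylates the adaptors Irs1 and Irs2, which pass the signal to PI3K, AKT and mTORC1, a branch that promotes protein, ribosome and lipid synthesis, and it also feeds the RAS, RAF, MEK and ERK cascade. AKT holds FoxO transcription factors outside the nucleus, so that FoxO targets tend to rise when the pathway is blocked. Microexons are very short exons, mostly spliced into the mRNAs of neurons and neuroendocrine cells, and the proteins Srrm4 and Srrm3 promote their use by binding just upstream of them. Most keep the reading frame and add a few amino acids to proteins of the cytoskeleton, of vesicle traffic and of the synapse.

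The 4 libraries held between 37427027 (DMSO C) and 75978445 (DMSO A) corrected junction reads summed over exon events, and the treated library held 45851056. Inclusion is given as PSI, the percentage of transcripts that include a sequence, and for introns as the percentage that retain it. An event was called when the treated library differed from the mean of the DMSO libraries by at least 10 PSI and the posterior probability of that direction, from the reads and from the spread of the DMSO libraries, was above 0.95. This posterior covers counting error and the spread among controls, but not the spread among treated cultures, which was not measured.

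Microexons of 27 nt or less stood apart from the other event classes and moved almost wholly towards inclusion. Of 605 microexons tested, 45 were increased, or 7.44% (95% Wilson interval 5.61 to 9.81%, counting error only), and 2 were decreased, or 0.331%. Each DMSO library set against the other 2 by the same rule gave only 5 to 9 increased and 6 to 9 decreased microexons, or 0.849 to 1.42% and 0.939 to 1.42%. Against the same number of controls, 2 DMSO libraries at a time, the treated library gave 49 to 51 increased and 3 to 5 decreased microexons. The asymmetry was also plain without any threshold. Over the 163 microexons whose DMSO mean lay between 10 and 90 PSI, the mean difference was 6.11 PSI, and 122 lay above their DMSO mean against 41 below it. In the 3 control comparisons the corresponding mean was between -0.04 and 0.678 PSI.

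Longer cassette exons showed, by the same rule, a weaker asymmetry in the same direction. With limma it depended on the fit and on the size limit. Of 57479 tested, 311 were increased (0.541%) and 197 decreased (0.343%). The control comparisons gave 172 to 207 increased and 235 to 291 decreased cassette exons, so that the increased ones exceeded the control level and the decreased ones did not. Over the 2756 cassette exons with a DMSO mean of 10 to 90 PSI, the mean difference was 2.81 PSI. Of these, 1851 lay above their DMSO mean and 896 below it. In the 3 control comparisons the corresponding mean was 0.577 to 1.01 PSI. Retained introns gave 122 increases (0.138%) and 94 decreases (0.106%) of 88302 tested. Alternative 3′ splice sites gave 63 increases (0.385%) and 81 decreases (0.495%) of 16353, and alternative 5′ splice sites gave 68 (0.563%) and 67 (0.555%) of 12070. Against pairs of DMSO libraries, the treated library gave 172 to 191 retained and 169 to 197 more fully spliced introns, where the control comparisons gave 122 to 221 and 69 to 166. Alternative 3′ sites gave 90 to 97 and 102 to 114 in the same way (controls 77 to 97 and 84 to 95), and alternative 5′ sites 90 to 96 and 84 to 102 (controls 75 to 95 and 58 to 91). For introns and splice sites the treated counts thus overlapped the control counts or lay a little above them.

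**Figure D1:**
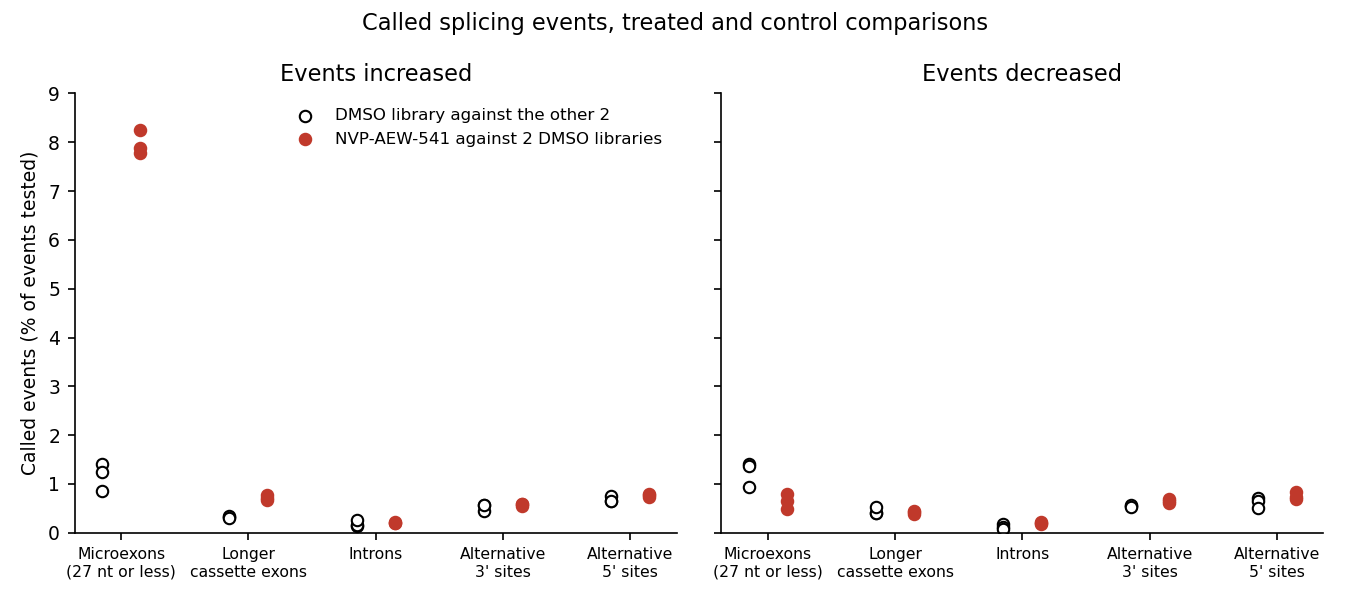
Share of tested events called (%) in each event class, for events increased (left) and decreased (right). Open circles are the 3 comparisons of a DMSO library with the other 2, and filled circles the 3 comparisons of the NVP-AEW-541 library with 2 DMSO libraries. The treated microexon increases lie at 7.79 to 8.25% against 0.849 to 1.42% in the controls, while the other classes lie below 1%.

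The calls depend on the model. With limma on logit PSI, which estimates the spread of each event from replicated libraries and adjusts over all events of all classes by the Benjamini-Hochberg method, no microexon passed an adjusted p of 0.05, either in the fit of all 34 libraries or in that of the 4. At an unadjusted p below 0.05 the fit of all libraries gave 34 of 555 microexons (6.13%), of which 28 were higher and 5 lower in treated cells, and 13 of the 34 were higher by at least 10 PSI. The share was near that over all event classes, 8194 of 162530 (5.04%), so that it does not set microexons apart. For cassette exons this fit had 1091 higher and 1848 lower at an unadjusted p below 0.05, and the fit of the 4 libraries had 2555 higher and 3274 lower, with 24 higher and 31 lower past both the adjusted p and 10 PSI. Most of these limma counts carry no size limit, unlike the main rule. With the limit of 10 PSI at the same unadjusted p, the fit of all libraries had more cassette exons higher than lower. The fit of the 4 libraries had fewer. The balance of cassette exons thus depended on the model and on the size limit. The microexon share given above pools both directions, and its higher ones outnumbered lower ones by a larger ratio than over all classes.

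The microexons behind the largest increases are short, coding and mostly in frame. Of the 45 increased microexons, 37 could be matched to a GENCODE exon of the same length with flanking introns of the same lengths, and all 37 lay within a coding sequence. Only protein-coding transcripts were searched and coding matches were preferred, which favours that outcome. The sequences of several that the results turn on are shown here 5′ to 3′ with the microexon in capitals and 12 bases of each neighbouring exon in lower case. They were read from GENCODE vM21 transcripts (build GRCm38).
Snx14 (27 nt, chr9:88400723-88400749, minus strand): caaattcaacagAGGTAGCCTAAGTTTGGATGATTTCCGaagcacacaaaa
L1cam (12 nt, chrX:73855652-73855663, minus strand): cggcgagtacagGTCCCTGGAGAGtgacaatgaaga
Mark3 (27 nt, chr12:111651958-111651984, plus strand): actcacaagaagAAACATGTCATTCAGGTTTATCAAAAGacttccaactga
Ergic3 (15 nt, chr2:156015377-156015391, plus strand): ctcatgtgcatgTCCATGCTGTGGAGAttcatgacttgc
Eif4g1 (21 nt, chr16:20674786-20674806, plus strand): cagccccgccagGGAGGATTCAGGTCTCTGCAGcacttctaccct
Tmem184b (21 nt, chr15:79363658-79363678, minus strand): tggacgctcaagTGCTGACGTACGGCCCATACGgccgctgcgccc
Pacsin2 (6 nt, chr15:83383623-83383628, minus strand): ccacagtttgagGATGAAgagtggtctgca
Clasp1 (24 nt, chr1:118541675-118541698, plus strand): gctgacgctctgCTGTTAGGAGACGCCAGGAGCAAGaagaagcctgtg
Clasp2 (24 nt, chr9:113878750-113878773, plus strand): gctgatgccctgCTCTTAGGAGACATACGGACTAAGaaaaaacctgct
Psap (9 nt, chr10:60297537-60297545, plus strand): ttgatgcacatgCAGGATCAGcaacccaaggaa
Vps29 (12 nt, chr5:122356794-122356805, plus strand): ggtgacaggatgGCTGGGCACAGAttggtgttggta

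Among the 45 increased microexons, 44 had a length that is a multiple of 3, against 453 of the 605 tested (74.9%). The exception was the 17 nt microexon of Pdlim7. Many tested microexons lay near 0 or 100 PSI, and among those with a DMSO mean of 10 to 90 PSI the share was 149 of 163 tested (91.4%) and 39 of 39 increased. Their lengths ran from 6 to 27 nt with a median of 21 nt, and 18 were 15 nt or shorter. In DMSO, 31 of them lay between 10 and 50 PSI, 8 between 50 and 90 PSI, 6 below 10 PSI and none above 90 PSI. Within the same 10 to 90 PSI limits, 39 of 163 were increased (23.9%), and the same limits on cassette exons gave 301 of 2756 (10.9%). Within those limits the control comparisons gave 2.67 to 4.94% of microexons and 6.2 to 6.77% of cassette exons. Of the 45 genes, 42 were above 5 RPKM and none of these differed by more than 2-fold. Over all genes 2.86% were higher and 0.865% lower past that limit, so that none of 42 is near the general share. Their log2 ratios ran from -0.71 (Mtss1l) to 0.60 (Ppfia2) with a median of -0.05.

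The largest increases, by the rule that required all 4 libraries to pass the filters, began with Snx14, a sorting nexin of endosomes and of contacts with the endoplasmic reticulum. Its 27 nt microexon lay at 51.7, 46.9 and 42.4 PSI in DMSO A, B and C and at 73.1 PSI in treated cells, 26.1 PSI above the DMSO mean (DMSO SD 4.64, n = 3). The treated value was above all 3 controls by more than the whole range of the controls.

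L1cam encodes a neuronal cell adhesion molecule that carries axon growth. Its 12 nt microexon, shown above, lay at 42.6, 41.4 and 38.1 PSI in the 3 DMSO libraries and at 65.6 PSI in treated cells, on 750 reads. The 27 nt microexon of Mark3, a kinase of microtubule-associated proteins, was at 29.1, 20.7 and 23.6 PSI in DMSO and at 49.2 PSI with the inhibitor. That of Fbxo25, an F-box protein of ubiquitin ligases, was at 21.7, 18.1 and 27.1 PSI in DMSO and at 45.0 PSI with it. In each of these genes inclusion in the treated library was outside the range of the controls and between 22.7 and 24.9 PSI above their mean.

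Ergic3, which cycles between the endoplasmic reticulum and the Golgi, had its 15 nt microexon at 33.9, 39.8 and 42.0 PSI in DMSO and at 59.8 PSI in treated cells. The 9 nt microexon of Ppfia2, a liprin of the presynaptic active zone, was at 15.01, 21.6 and 15.9 PSI against 38.7 PSI, on 57 to 69 reads in each library. The 21 nt microexon of Eif4g1, the scaffold of the translation initiation complex eIF4F, was among the best measured. It stood at 47.3, 47.5 and 50.2 PSI in DMSO and at 69.1 PSI in treated cells (1205 reads), a rise of 20.7 PSI over a DMSO SD of 1.60.

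The remaining named increases had similar sizes. In Mtss1l, a membrane-bending protein, the 9 nt microexon was at 42.8, 55.9 and 59.1 PSI in DMSO and 72.9 PSI in treated cells, and here the DMSO libraries themselves differed by more than 10 PSI. In Tmem184b, a transmembrane protein, the 21 nt microexon was at 17.3, 16.7 and 17.4 PSI in DMSO and 36.5 PSI in treated cells, with the tightest controls of the set. In Zfyve27, which promotes neurite formation, the 21 nt microexon was at 46.7, 37.5 and 47.4 PSI in DMSO and 63.2 PSI in treated cells. The groups overlapped in none of these 10 microexons, which follows from the rule that named them.

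**Figure D2:**
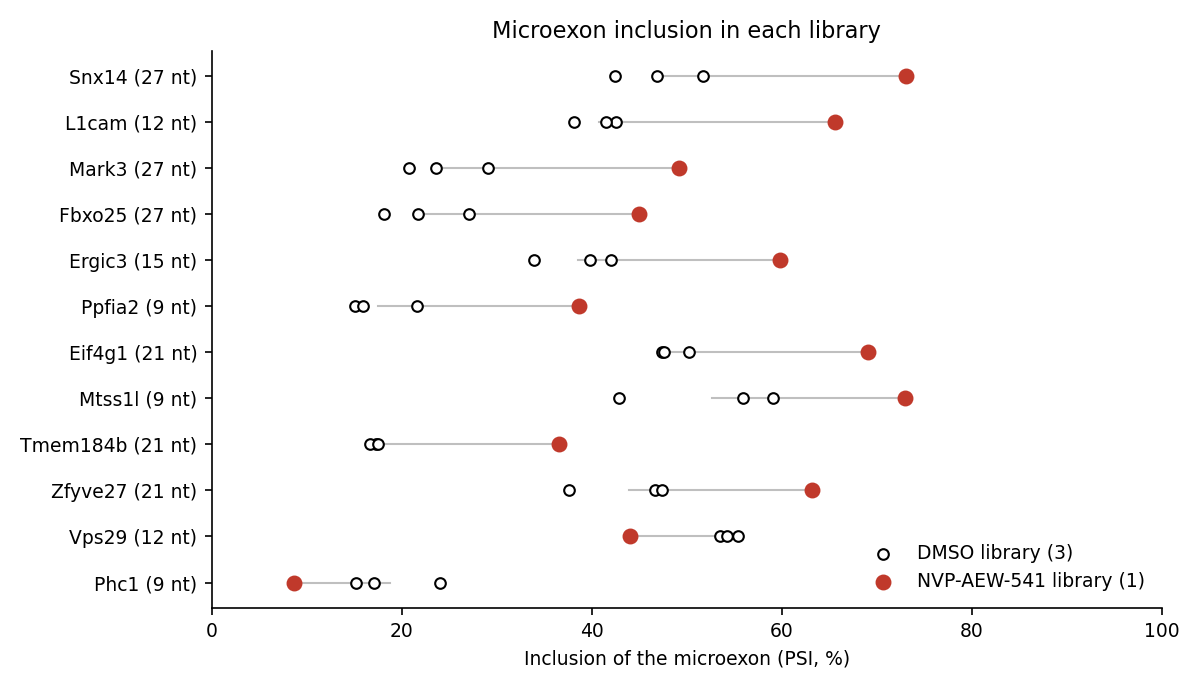
Inclusion (PSI, %) of the 10 called microexons with the largest rise and of the 2 called falls. Open circles are the 3 DMSO libraries, the filled circle is the NVP-AEW-541 library, and the line joins the DMSO mean to it. In all 10 rises the treated library lies right of every DMSO library, and in Vps29 and Phc1 it lies left of them.

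By the roles of their genes, 15 of the increased microexons were in proteins of membrane shaping and vesicle traffic. They included Pacsin2, an F-BAR protein of endocytosis, whose 6 nt microexon was at 37.5, 34.6 and 40.5 PSI in DMSO and at 55.8 PSI in treated cells on 1161 reads. Fnbp1, another F-BAR protein, had 11.7, 13.6 and 13.7 PSI in DMSO and 31.4 PSI with the inhibitor. Synj1, the phosphatase that uncoats clathrin-coated vesicles, had 64.8, 66.5 and 62.5 PSI against 79.9 PSI. The median rise over the 15 was 15.3 PSI, with a range of 10.8 to 26.1 PSI.

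A further 8 increased microexons belonged to proteins of microtubules or of the spectrin and ankyrin skeleton. Clasp1 and Clasp2, which stabilise growing microtubule ends, share a microexon of 24 nt that is identical at 17 of its 24 bases. It was at 72.0, 65.1 and 68.9 PSI in DMSO and 81.7 PSI in treated cells in Clasp1, and at 82.9, 80.9 and 75.2 against 90.6 PSI in Clasp2. Ckap5, a microtubule polymerase, had 43.98, 45.3 and 44.9 PSI in DMSO and 58.0 PSI with the inhibitor. The 15 nt microexon of the spectrin gene Sptan1 (listed as Spna2) had 68.3, 69.3 and 66.1 against 83.4 PSI. In Ckap5 and Sptan1 the DMSO values lay within a few PSI of each other, so the rises of 13.3 and 15.4 PSI were many times their spread (DMSO SD 0.674 and 1.66).

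Proteins of adhesion, axon guidance and the synapse held 8 increased microexons, with rises of 10.1 to 24.9 PSI. Beside L1cam and Ppfia2 they were in Slit2 (a guidance cue), Agrn (which clusters acetylcholine receptors), Ptprs, Arvcf, Ppfia1 and Dlg1 (a synaptic scaffold). Kinases and exchange factors held 5, among them those of Dock9, Rapgef6, Tnik and Mast2, with rises of 14.2 to 26.4 PSI. The 9 others included the most deeply read one, the 9 nt microexon of Psap, the precursor of the lysosomal saposins. It stood at 45.7, 44.9 and 45.8 PSI in DMSO and at 57.8 PSI in treated cells on 10050 reads. These groups of genes were drawn up after the increased microexons were known, so their sizes are descriptions.

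The 2 decreased microexons were close to the limit of 10 PSI. Vps29, a subunit of the retromer, had its 12 nt microexon at 53.5, 54.2 and 55.4 PSI in DMSO and at 43.99 PSI in treated cells on 2294 reads. Phc1, a Polycomb group protein, had a 9 nt microexon at 15.1, 17.02 and 24.1 PSI in DMSO and at 8.59 PSI in treated cells. Without DMSO C, both differences fell under the limit, to -9.84 and -7.49 PSI. At the same limit, the smallest called rise was that of Dlg1, at 10.1 PSI, and the microexons of Lphn2 and Ppp6r3 lay just outside it, at 9.98 and 9.84 PSI.

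Of the 7 exons of the study's RT-PCR panel, 2 of the 4 microexons and none of the 3 longer exons were called. The called microexons were those of Ergic3, given above, and Mast2. The 21 nt microexon of Mef2d, a transcription factor of neurons and muscle whose microexon was the target of the screen, was near saturation, at 89.5, 88.7 and 88.7 PSI in DMSO and at 91.9 PSI in treated cells, and was not called. Mast2, a microtubule-associated kinase, was called, at 47.1, 48.9 and 33.3 PSI against 60.7 PSI (21 nt). Trappc9, a subunit of a tethering complex of the Golgi, was not called, at 29.7, 31.6 and 33.2 against 39.2 PSI (27 nt). Of the longer panel exons, that of Zdhhc20, a palmitoyl transferase, was at 28.96, 41.4 and 31.3 PSI against 44.7 PSI, and that of Asph, an aspartate hydroxylase, at 70.8, 56.5 and 57.5 against 73.5 PSI. Both lay above all 3 DMSO libraries, 10.8 and 11.9 PSI over the DMSO mean. They missed the call only by their posterior, 0.937 and 0.9215. The Mgrn1 exon was at 7.80, 12.02 and 9.58 against 9.90 PSI, within the range of the controls.

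Set directly against the other inhibitor libraries, read by read, the increased microexons were seldom distinguishable from Trametinib and more often from A-443654. Of the 44 that could be compared with Trametinib, 6 were higher and 0 lower with NVP-AEW-541 (at least 10 PSI and posterior above 0.95). Against A-443654, 16 of 44 were higher and 3 lower. These microexons were selected for their level in the NVP-AEW-541 library, which favours that library in such counts. Over all microexons, without selection, 14 of 612 were higher and 20 lower than with Trametinib, and 25 of 607 were higher and 47 lower than with A-443654. Each of these comparisons is between 2 libraries at doses that differ in the case of A-443654, and does not test the treatments.

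Some microexons separated the NVP-AEW-541 library from that of A-443654, from that of Trametinib or from both. Ckap5, Arvcf and Dock9, named above, were higher than with Trametinib past the limits. They were at 58.0, 66.2 and 26.4 PSI against 47.3, 53.4 and 3.41 PSI. Of these, only Dock9 also passed the limits against A-443654, where it was at 0 PSI. The next microexons, up to Pacsin2, passed them against A-443654 but not against Trametinib. Fbxo25 was at 45.0 PSI with NVP-AEW-541, 23.7 PSI with A-443654 and 38 PSI with Trametinib. Slit2 was at 38.1, 24.5 and 38.1 PSI in the same order, and Ppfia2 at 38.7, 13.9 and 39.99 PSI. In these 3 the A-443654 library lay within or below the DMSO range while the other two lay above it. Rapgef6, a Rap exchange factor, had the reverse order, with 35.6 PSI under NVP-AEW-541, 62.9 PSI under A-443654 and 38.8 PSI under Trametinib. Pacsin2 also was highest with A-443654, at 72.9 PSI, against 55.8 and 58.1 PSI. Phc1 had 8.59 PSI with NVP-AEW-541 but 24.7 PSI with A-443654 and 29.5 PSI with Trametinib, and both differences passed the limits.

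Most cassette exons tested were near full inclusion in DMSO, so lengths are compared only for those with a DMSO mean of 10 to 90 PSI. There the 301 increased exons had a median length of 92 nt and 58.5% were multiples of 3, the 83 decreased ones had 126 nt and 53.0%, and all 2756 tested had 103 nt and 52.0%. The cassette exons named here, in both directions, rested on 36 to 103 reads in the treated library. Gng8, a G protein gamma subunit, had a 99 nt exon at 34.97, 27.04 and 20.5 PSI in DMSO and 58.1 PSI in treated cells. Cbs, the cystathionine synthase of the transsulfuration pathway, had a 42 nt exon at 24.6, 15.2 and 27.3 against 49.5 PSI. Hnrnph1, an RNA-binding protein that regulates splicing, had a 127 nt exon at 50.3, 33.3 and 43.5 PSI in DMSO and at 70.2 PSI in treated cells, on 40 reads. In the opposite direction, exons of Osgepl1, Ppcdc, Tpcn2, Zufsp, Fars2 and Ggcx were lower by 22.5 to 26.01 PSI. Of these, Tpcn2 (DMSO 54.4, 61.8 and 89.3 PSI, treated 43.4 PSI) lost its call without DMSO C.

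Among introns and splice sites, whose counts were near those of control comparisons, single events are given as values with no more weight than that. The largest was an intron of Sptan1 (mm9 chr2:29883169-29884163), retained at 85.3, 100 and 81.5% in DMSO and at 17.1% in treated cells on 31 reads. It was at 60.8% with A-443654 and 38.5% with Trametinib. An intron of Myef2 (DMSO 54.0, 74.4 and 64.1%) was at 100% in the treated library. An alternative 3′ site of Mapt, the microtubule protein tau, was used at 44.4, 40 and 32 PSI in DMSO and at 61.4 PSI in treated cells. One alternative 5′ site of Hnrnpk, an RNA-binding protein, was at 44.4, 40.6 and 65.4 against 85.5 PSI. That of Mbtd1 (3′ site) was called lower at 8.83 PSI, but its DMSO libraries ran from 20.98 to 97.4 PSI.

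Gene levels were deposited as RPKM with 1 value per condition, so DMSO levels are the authors' value merged over replicates, with no SD, and no gene was tested. Differences are log2 ratios of RPKM + 0.5, a scale that understates differences of low genes. Of 9827 genes above 5 RPKM in either condition, 281 were over 2-fold higher (2.86%) and 85 over 2-fold lower (0.865%) in treated cells. The median gene lay at -0.15, and centred on it the counts became 377 and 57, so that an excess of higher genes held on both scales. As a measure of how far single libraries differ from DMSO, the 22 other compounds with 1 library gave 36 to 596 higher genes (median 130) and 31 to 828 lower genes (median 121).

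The genes with the largest ratios were nearly silent in DMSO. Gsta4, a glutathione transferase that clears lipid aldehydes, was at 0.26 RPKM in DMSO and 9.58 RPKM in treated cells. Gstt1, another glutathione transferase, went from 0.13 to 6.03 RPKM, S100a11, a calcium-binding protein, from 1.17 to 21.6 RPKM, and Ifitm3, an interferon-inducible membrane protein, from 2.16 to 31.6 RPKM. Clu, an extracellular chaperone, was at 1.06 and 11.98 RPKM, and Rhd, of the Rh blood group family, at 0.76 and 14.6 RPKM. For all 6 genes the treated library was above all 22 other single-library compounds, whose highest values were 1 RPKM for Gsta4, 2.76 RPKM for S100a11 and 9.06 RPKM for Ifitm3. All 6 were under 5 RPKM in DMSO, so they counted as expressed only through the treated library. Their choice as the largest rises also favours that library in this ranking. With A-443654 and Trametinib, Gsta4 was at 0.57 and 0.50 RPKM and S100a11 at 1.36 and 0.53 RPKM.

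The remaining 4 of the 10 largest rises included 2 members of the relaxin and insulin family of peptide hormones, Rln1 (0.31 to 6.41 RPKM) and Insl6 (0.73 to 8.14 RPKM). Sprr2f, a cornified envelope protein, was at 0.27 and 5.36 RPKM. Mgarp, a mitochondrial protein, was at 5.57 RPKM in DMSO and 44.6 RPKM in treated cells, and 2 of the other compounds reached higher values.

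The lowest ratios were smaller in size. Rps27, a protein of the small ribosomal subunit, was at 61.2 RPKM in DMSO and 9.87 RPKM in treated cells, and Atp5b, the beta subunit of ATP synthase, at 6599.9 and 2553 RPKM. Both have near-identical copies in the genome that can share reads, and both varied widely among the other compounds, from 13.7 to 156 RPKM and from 3286 to 17481 RPKM, so their values are uncertain. Atf5, a stress-responsive transcription factor, was at 20.6 and 7.24 RPKM, below all 22 other compounds. Tomm20, a receptor for mitochondrial import, was at 175.6 and 75.3 RPKM, and Arl2bp, which binds the GTPase Arl2, at 187 and 79.3 RPKM. Slc37a4, the glucose 6-phosphate transporter, was at 16.5 and 6.91 RPKM, and the peroxisome biogenesis factor Pex10 at 10.6 and 4.10 RPKM. Ap4s1, Mcrip2 and Ciart, a repressor of the circadian clock, were 2.28- to 2.56-fold lower on the same scale.

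**Figure D3:**
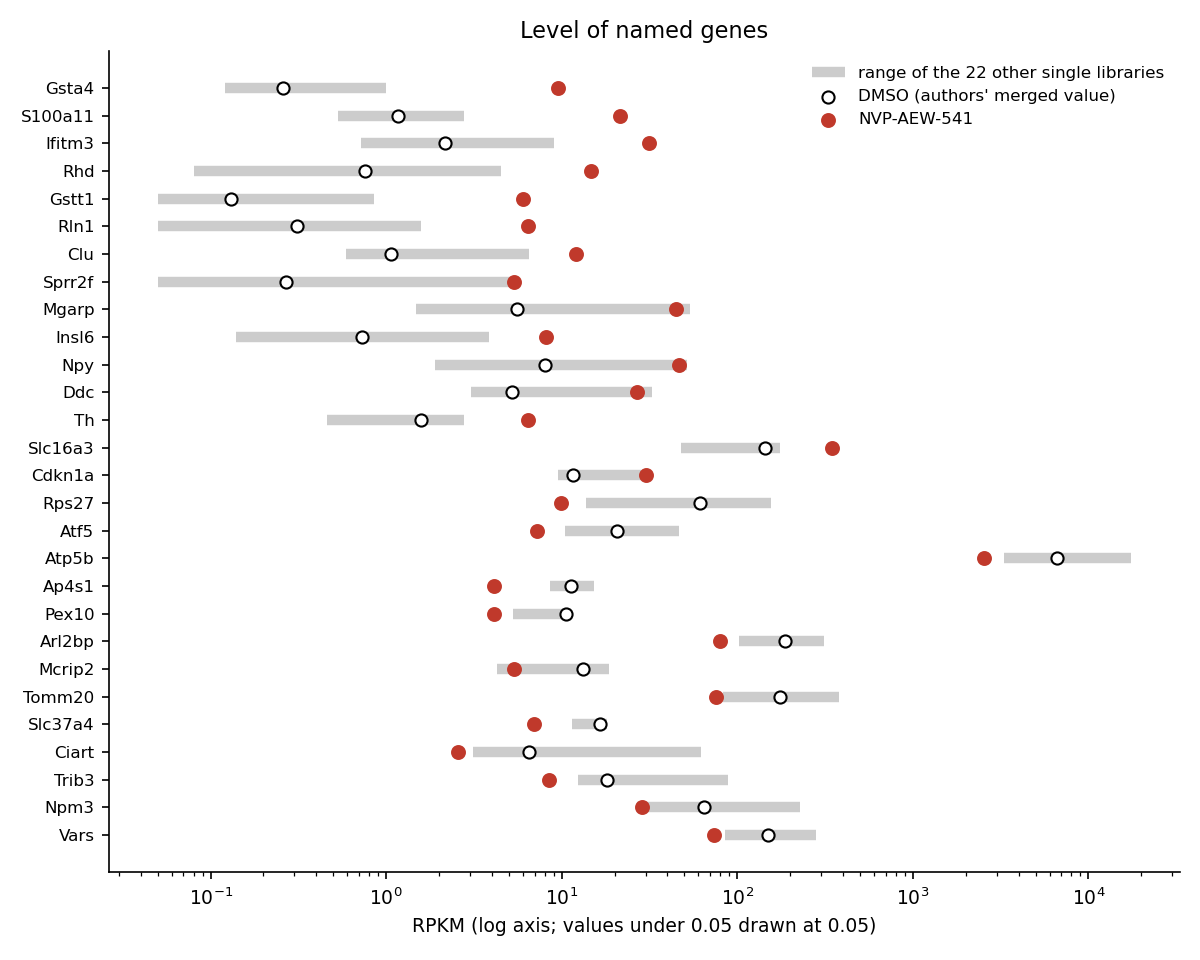
RPKM (log axis) of the 10 genes with the largest rise, the 10 with the largest fall and 8 list members named in the text. Open circles are DMSO, filled circles NVP-AEW-541, and grey bars the range over the 22 other compounds with 1 library. Gsta4 and S100a11 lie far right of their bars, while Atf5 and Slc37a4 lie left of theirs.

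The pathway of the drug target itself was expressed in part. Igf1r was at 4.79 RPKM in DMSO and 5.41 RPKM in treated cells, and the insulin receptor gene Insr at 12.4 and 11.1 RPKM. The adaptor Irs2 was at 33.2 and 35.4 RPKM and Irs1 at 2.94 and 3.47 RPKM. The ligand Igf2 was listed at 0 in DMSO and at 0.05 RPKM in treated cells, and Igf1 at 0.01 and 0.02 RPKM, so that these cells had almost no mRNA for either growth factor. On the RPKM + 0.5 scale the 4 receptor and adaptor genes differed by at most 1.15-fold.

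Of the 74 genes of the IGF1R and insulin pathway list, 51 were expressed. Their median log2 ratio was -0.20 beside -0.15 for all genes. Of the 51, 3 were over 2-fold higher and 0 lower, beside 2.86% and 0.865% of all genes. These shares are the reference for the counts of every gene list below. Those 3 were Deptor, an inhibitor of mTOR (2.74 to 8.32 RPKM), Pik3cd, a PI3K catalytic subunit (1.88 to 5.29 RPKM), and Grb14, an adaptor that restrains the insulin receptor (6.31 to 13.9 RPKM). Deptor and Pik3cd were under 5 RPKM in DMSO, so they counted as expressed only through the treated library. In all 3 the treated library was above the 22 other compounds, which their choice as higher genes favours. Deptor was nearly as high with A-443654, at 7.16 RPKM, and lower with Trametinib, at 1.06 RPKM. At the other end were Eif4ebp1, the mTORC1-regulated repressor of eIF4E (105 to 57.3 RPKM), and Akt1s1, a subunit of mTORC1 (43.6 to 24.8 RPKM), which were below all 22 other compounds. Their choice as low members favours that rank.

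FoxO target genes were little different as a list: of 19 expressed, 1 was over 2-fold higher and 0 lower, beside 2.86% and 0.865% of all genes. Their median was 0.09, and 16 lay above the median of all genes. The member past the limit was Ccng2, a cyclin that slows the cell cycle, at 4.45 and 10.1 RPKM. It counted as expressed only through the treated library. Txnip, which restrains glucose uptake (7.45 to 15.4 RPKM), and Hbp1, a repressor of cell cycle genes (19.3 to 38.9 RPKM), lay just under it at log2 ratios of 0.997 and 0.991. Sod2, a mitochondrial superoxide dismutase also known as a FoxO target, was at 41.1 and 26.9 RPKM.

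As a list, the mRNAs of ERK feedback genes were close to their level in DMSO. ERK activity itself was not measured. Of the 14 expressed ERK feedback genes 1, Ier3 (5.57 to 12.4 RPKM), was over 2-fold higher and 0 were lower, with a median of 0.04. Over all genes 2.86% were higher and 0.865% lower by that measure. The transcription factor gene Etv4 was at 66.0 RPKM in DMSO and 58.2 RPKM in treated cells, and Dusp6, an ERK phosphatase, at 22.01 and 32.8 RPKM. With Trametinib, by contrast, Etv4 was at 1.41 RPKM and Dusp6 at 0.69 RPKM, and the list median was -1.83. With A-443654 the median was 0.22. Among 12 expressed immediate early genes, 1, Nr4a2, a nuclear receptor of dopaminergic neurons (3.79 to 10.2 RPKM), was over 2-fold higher and 0 were lower, beside the same shares of all genes. Nr4a2 counted as expressed only through the treated library. The list median was -0.30, and Egr1 was at 16.8 and 8.32 RPKM.

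Few genes of biosynthesis passed 2-fold. Of 21 expressed genes of the ATF4 and amino acid list, 0 were over 2-fold higher and 1 lower, with a median of -0.58, and all 21 lay below the median of all genes. The member past the limit was Trib3, a pseudokinase that binds AKT (18.1 to 8.41 RPKM), below all 22 other compounds and at 56.2 RPKM with A-443654. Its choice as the member past the limit favours its low rank. Atf4 itself was at 309 and 211 RPKM, the serine hydroxymethyltransferase Shmt2 at 221 and 122 RPKM, the amino acid transporter Slc7a5 at 389 and 230 RPKM, and asparagine synthetase, Asns, at 548 and 387 RPKM. The list median was 0.36 with A-443654 and -0.31 with Trametinib, and 2 of the 22 other compounds had a lower one.

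Of 18 expressed members of this list with a RefSeq promoter window, from 250 bases before to 50 bases after the start of the gene, 5 held the C/EBP-ATF response element TGATGNAAN on either strand, against 4.5% of all RefSeq genes and 2.63% of genes above 5 RPKM. The list was drawn up as ATF4 targets, so a high share of the element can follow from that choice and says nothing about the treatment. The windows are shown because the members lay together below the other genes. Capitals mark the element, as read on the strand of the gene (build GRCm38.p6).
Asns (chr6:7693204-7693252, minus strand): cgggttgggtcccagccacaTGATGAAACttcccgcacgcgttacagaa
Chac1 (chr2:119351028-119351076, plus strand): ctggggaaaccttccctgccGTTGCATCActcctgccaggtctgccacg
Pycr1 (chr11:120643823-120643871, minus strand): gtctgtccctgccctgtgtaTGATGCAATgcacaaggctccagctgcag
Slc1a4 (chr11:20332690-20332738, minus strand): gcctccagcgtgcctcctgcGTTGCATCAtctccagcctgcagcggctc
Trib3 (chr2:152344019-152344067, minus strand): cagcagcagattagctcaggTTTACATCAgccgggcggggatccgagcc
In Chac1, Slc1a4 and Trib3 the element runs on the opposite strand. A match of letters is a description and not a bound site.

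Sterol and fatty acid genes had 34 expressed members, of which 0 passed 2-fold in either direction, with a median of -0.28 and 27 below the median of all genes. For this list 6 of the 22 other compounds had a lower median. Fasn, the fatty acid synthase, was lowest at 116 and 61.6 RPKM, below all 22 other compounds, which its choice as the lowest member favours. Glucose and hypoxia genes had 23 expressed members with a median of -0.29. Ldha was at 1406 and 1029 RPKM and Gapdh at 404.5 and 291 RPKM. Against that direction, the lactate exporter Slc16a3 (144 to 348 RPKM) and the neuronal enolase Eno2 (20.8 to 43.9 RPKM) were over 2-fold higher, above all 22 other compounds. Their choice as higher genes favours that rank.

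Cell cycle genes had a median of -0.25 over 35 expressed members, of which 32 lay below 0. Cdkn1a, the cyclin-dependent kinase inhibitor p21, was over 2-fold higher at 11.6 and 30.2 RPKM, and 0 were over 2-fold lower. Cdk4 was at 460.1 and 272 RPKM and the replication licensing factor Cdt1 at 76.5 and 42.4 RPKM. Mki67, a proliferation marker, was at 70.2 and 65.4 RPKM.

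Lysosome and autophagy genes lay a little above other genes, with a median of 0.11 (24 expressed) and 19 above the median of all genes. The highest were Ctsl, a lysosomal protease (117 to 234 RPKM), and Wipi1, of early autophagosomes (25.01 to 49.9 RPKM), at log2 ratios of 0.99 and 0.98, just under 2-fold. Both were above all 22 other compounds, which their choice as the highest members favours.

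Of 20 markers of the neuroblastoma itself 16 were expressed, of which 2 were over 2-fold higher and 0 lower, beside 2.86% and 0.865% of all genes. Their median was 0.415, and 15 lay above the median of all genes. Past 2-fold were Th, tyrosine hydroxylase, the rate-limiting enzyme of catecholamine synthesis (1.57 to 6.4 RPKM), and Dbh, which makes noradrenaline (11.4 to 27.3 RPKM). The 16 markers were those above 5 RPKM in DMSO or in treated cells. Th passed only through the treated library, which favours that library here. No other single-library compound had as high a list median, the range being -0.51 to 0.405. It was -0.43 with A-443654 and 0.27 with Trametinib. Of the 16 markers, 3 lay below their DMSO level, so that not all were higher. In bulk RNA, more cells that express a gene and more RNA per cell cannot be told apart.

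Markers of other cell types were near 0 in both conditions. None of 21 reached 5 RPKM, and the highest in treated cells was Pecam1, at 0.79 RPKM in DMSO and 2.12 RPKM in treated cells. Summed over the list they came to 3.40 RPKM in DMSO and 6.49 RPKM in treated cells, with 7 genes at 0 in DMSO and 3 in treated cells. Csf1r, Sox10 and Epcam were at 0 in both.

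**Figure D4:**
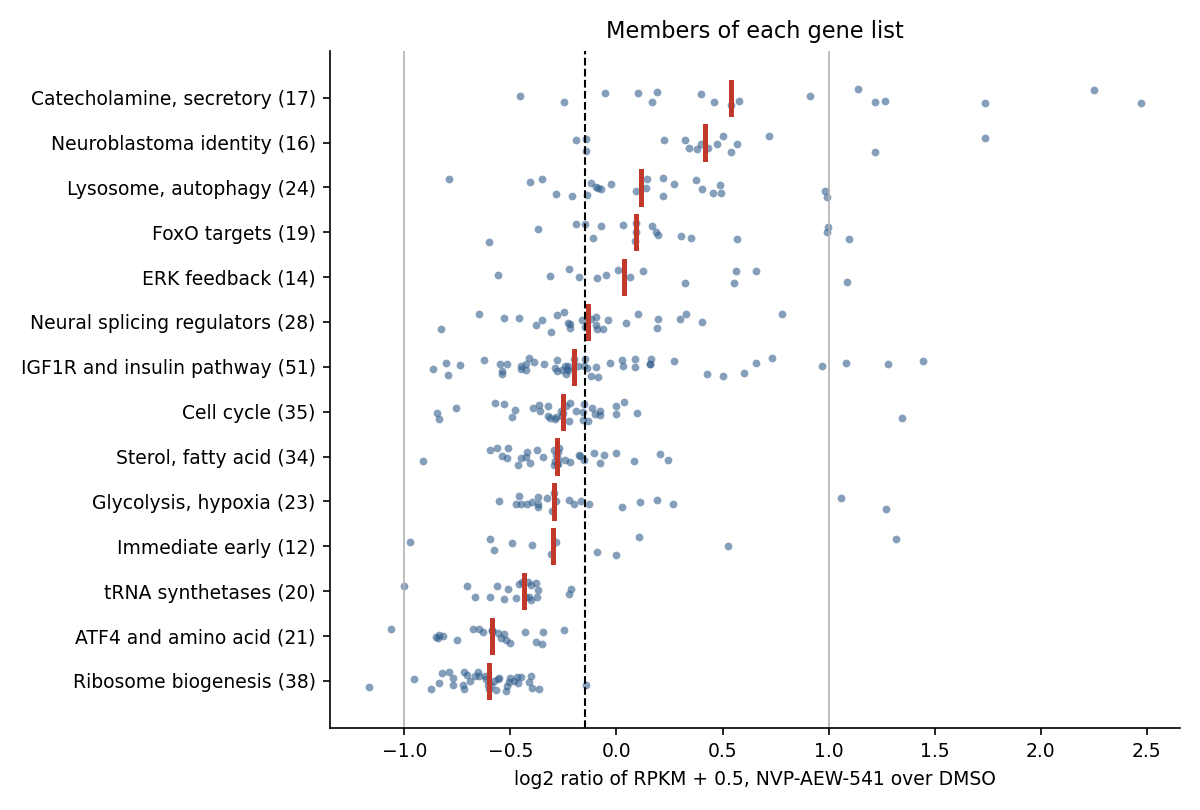
Log2 ratio (RPKM + 0.5, NVP-AEW-541 over DMSO) of every expressed member of each gene list, with the number of members in brackets. Red bars are list medians, the dashed line is the median of all genes (-0.15) and grey lines mark 2-fold. The ATF4 list lies wholly left of the dashed line and the neuroblastoma list mostly right of it. The ribosome biogenesis, tRNA synthetase and catecholamine lists were drawn up after the gene levels were seen.

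Of 28 expressed regulators of neural splicing, 0 passed 2-fold in either direction. Their log2 ratios ran from -0.83 to 0.78, with 20 below 0 and a median of -0.13, near that of all genes (it changes sign to 0.02 when centred). Srrm4 was at 10.4 RPKM in DMSO and 9.34 RPKM in treated cells, and its paralog Srrm3 at 18.5 and 10.2 RPKM, the lowest ratio of the list. Rbm38, an RNA-binding protein described as a repressor of microexons, was at 40.6 and 34.9 RPKM. Ptbp1, a repressor of neural exons, was at 476 and 303 RPKM, below all 22 other compounds. Both Srrm3 (-0.83) and Ptbp1 (-0.65) lay below the 5th percentile of all genes, -0.61. With A-443654 and Trametinib, Ptbp1 was at 446 and 368 RPKM and Srrm3 at 14.5 and 16.9 RPKM.

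Side by side, the list medians of the 3 inhibitors differed most for amino acid genes, ERK feedback genes and neuroblastoma markers. All 3 share the DMSO control value, so a deviation of DMSO would move them together, and the libraries differ in dose.

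**Figure D5:**
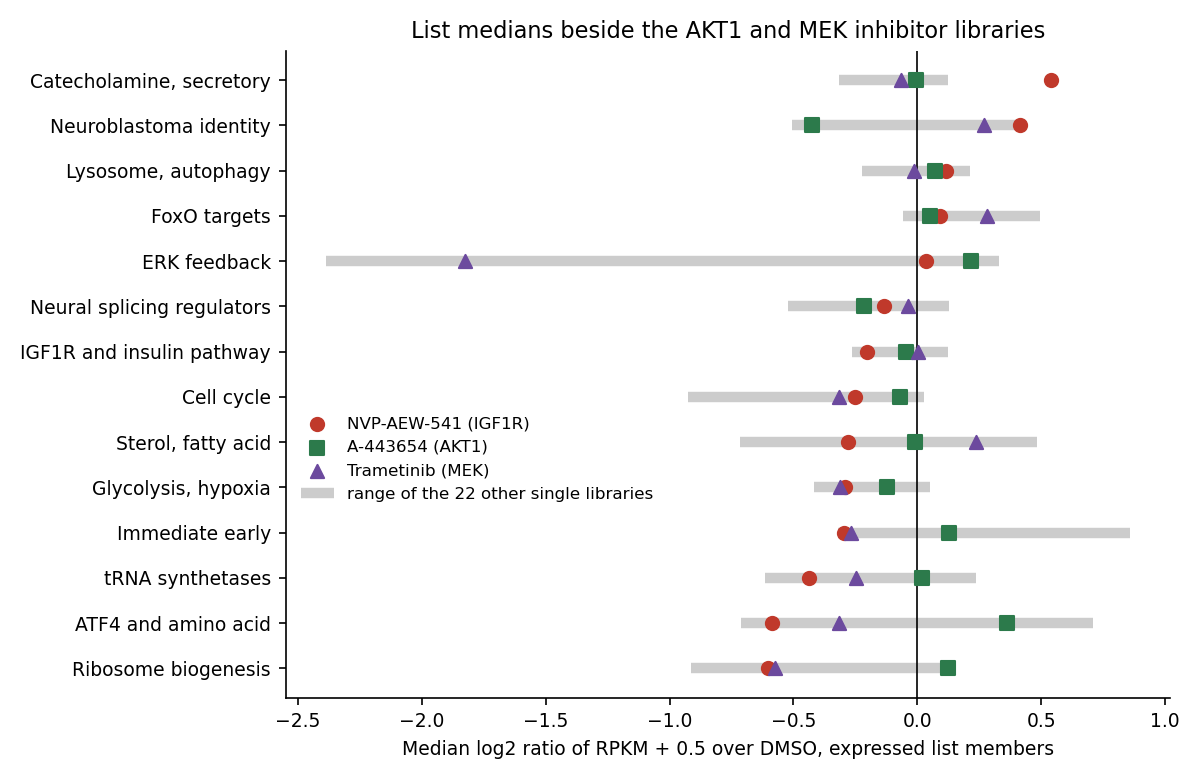
Median log2 ratio over DMSO of the expressed members of each list for NVP-AEW-541 (circles), A-443654 (squares) and Trametinib (triangles), with grey bars for the range over the 22 other compounds with 1 library. For ERK feedback genes the medians are 0.04, 0.22 and -1.83, and for ATF4 genes -0.58, 0.36 and -0.31, in that order.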

How the data were processed

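PolyA RNA-seq of N2A cells was analysed from the tables the authors deposited. Inclusion is deposited by the authors as percent (PSI), with quality scores and corrected read numbers for each library, from vast-tools on mm9. Gene levels were deposited as RPKM, from Salmon on GENCODE transcripts, and the submitters' processing notes also name mm9 and edgeR. Columns with the authors' own fold changes, p-values and calls were not used. Samples were grouped by treatment label.

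Exons and splice sites needed a coverage score of LOW or better, exons also a balanced junction score where one was given, and introns 15 or more reads with a junction imbalance p over 0.05. The posterior used 2000 beta draws per event from inclusion and exclusion reads, with the DMSO draws pooled over libraries, and at least 2 DMSO libraries had to pass. Only the longer forms of alternative splice sites were tested. Genes above 5 RPKM in either condition were compared on log2(RPKM + 0.5). List medians of the other compounds used the same members, so members past the limit only in treated cells favour that library. limma 3.58.1 (R 4.3.3, Python 3 with numpy and scipy) gave the alternative test, on log2 of inclusion over exclusion reads with 0.5 added to each and at least 10 reads. Scripts were tested on simulated data. The doses are those the study lists for the compounds.

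Named events were the RT-PCR panel exons (for each gene, the tested exon of its length class with a DMSO mean of 5 to 95 PSI and the most reads) and, among called events outside the DMSO range with all 4 libraries passing and at least 20 reads, the 10 microexons, 6 cassette exons, 5 introns and 3 splice sites of each kind with the largest change each way, of which the text gives a part. Named genes were the 10 largest rises and falls among genes above 0 in both, leaving out predicted genes, pseudogenes, small RNAs, histones and mitochondrial genes, plus list members past 2-fold and Igf1r, Insr, Igf2, Irs1, Irs2, Srrm3, Srrm4 and Rbm38. Members and lists were chosen with earlier results of these data known. Other genes and events were named after their values were seen. Genes named for a high or low treated value tend, through that choice, to rank above or below the other compounds. No single-library column was left out. Some named events and genes that the rule gave are not reported here.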

Additional observations from a re-analysis of the deposited data

How the results depend on the processing

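No paired analysis was possible because the treated group holds 1 library, so that at most 1 replicate letter (A, in its description) is shared with DMSO. The direction of the microexon result, many more increases than decreases, held under each setting of the posterior rule. At 15 PSI the calls, in both directions together, were 26 microexons (26 increased), 193 cassette exons, 127 introns, 65 alternative 3′ sites and 64 alternative 5′ sites. A posterior above 0.99 left 57 introns, 54 alternative 3′ sites and 50 alternative 5′ sites, against 216, 144 and 135 in the main setting. Leaving out a DMSO library gave 52 to 55 microexons, 623 to 707 cassette exons, 360 to 369 introns, 192 to 211 alternative 3′ sites and 174 to 196 alternative 5′ sites, more than with all 3. Microexons of 15 nt or less gave 20 calls. With limma on all libraries the counts past both limits were 0 for microexons, 0 for cassette exons, 0 for introns, 0 for alternative 3′ sites and 0 for alternative 5′ sites, with 3054 cassette exons, 3435 introns, 940 alternative 3′ sites and 731 alternative 5′ sites at an unadjusted p below 0.05. With limma on the 4 libraries they were 0, 55 (24 increased and 31 decreased, the opposite balance to the main rule), 19, 13 and 13, and 33 microexons had an unadjusted p below 0.05. The cause of these differences was not tested. Of 138 values of the 46 named events with a DMSO library left out, 133 kept their call, 5 lost it and none changed direction. Besides Vps29, Phc1 and Tpcn2, which lost it without DMSO C, these were an intron of Clcn2 and the 5′ site of Kif1b, without DMSO A (-24.0 and 17.5 PSI).

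Counts of genes past the fold limit were 366 in the main setting, 1023 with a limit of 1 RPKM, 204 with 10 RPKM, 1332 with none and 1249 at 1.5-fold (656 higher and 593 lower). Centring moved every list median by 0.15, and that of the neural splicing regulators changed sign, from -0.13 to 0.0153. With 1 treated library and no DMSO spread for genes, no gene difference can be set against replicate error.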

Other observations

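A group of catecholamine and secretory granule genes, drawn up after the gene levels were seen, had several members over 2-fold higher with NVP-AEW-541. Of 17 expressed members of 25, 6 were over 2-fold higher and 0 lower, with a median log2 ratio of 0.54 beside -0.15 for all genes, where the 22 other single-library compounds ran from -0.31 to 0.13. The list was chosen on the treated library, which favours that library in this comparison. Npy, a neuropeptide of sympathetic neurons, was at 8 RPKM in DMSO and 46.7 RPKM in treated cells, and Ddc, the decarboxylase that makes dopamine, at 5.24 and 26.8 RPKM, and other compounds reached 51.96 and 32.9 RPKM for these genes. Slc18a2, which loads monoamines into vesicles, was at 33.4 and 80.97 RPKM, and Scg2, a granin of dense core vesicles, at 112 and 247 RPKM. Th and Dbh belong to this group too. With A-443654, Npy was at 31.2, Ddc at 13.1 and Slc18a2 at 50.5 RPKM, while Th was at 0.64 and Dbh at 5.48 RPKM.

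Ribosome biogenesis genes and tRNA synthetases were also grouped after their values were seen, and 1 member of each list was over 2-fold lower. All 38 ribosome biogenesis genes lay below their DMSO level and 37 below the median of all genes, with a median of -0.60. Of the 38, 1 passed 2-fold, the histone chaperone Npm3 (64.6 to 28.5 RPKM). The nucleolar proteins Ncl (1232 to 711 RPKM) and Npm1 (5040.5 to 2951 RPKM) were among them. All 20 cytosolic tRNA synthetase genes lay below the median of all genes, with a median of -0.44, and Vars, the valine enzyme, passed 2-fold (149 to 74.1 RPKM). Lower medians were found for 3 and 2 of the 22 other compounds. With Trametinib the 2 medians were -0.58 and -0.25, and with A-443654 they were 0.13 and 0.02. Of 12 synthetase genes with a RefSeq promoter window, 5 held the element TGATGNAAN, as did 1 of 34 ribosome biogenesis genes.

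Rln1 and Insl6, both among the 10 largest rises, are neighbours on chromosome 19 (GRCm38), 5813 bases apart and on the same strand. The genes on either side were not over 2-fold different: Jak2 was at 5.28 and 6.37 RPKM and Plgrkt at 42.1 and 37.4 RPKM.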
